A study of Mus musculus with 12 samples.

Results

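The genes described here are the 10 that carry copper into the cell, hand it to its target proteins and export it, among the 24824 genes listed for AML12 mouse hepatocytes. They were taken by symbol, and all 10 were in the table. *Slc31a1*, *Slc31a2*, *Atp7a* and *Atp7b* encode membrane transporters, *Atox1*, *Ccs* and *Cox17* encode copper chaperones, *Sod1* encodes the enzyme that *Ccs* serves, *Commd1* encodes a regulator of copper export, and *Mtf1* encodes a metal-responsive transcription factor. AML12 is an immortalized hepatocyte line derived from a mouse carrying a transforming growth factor alpha transgene. Group A was cultured in standard growth medium. Group B received 300 μM CuCl2 with 40 nM elesclomol (ES), an ionophore that carries copper across membranes (together Cu/ES), group C received the same CuCl2 and ES with 1000 μM taurocholic acid (TCA), a conjugated bile acid, and group D received 1000 μM TCA without CuCl2 and ES. Each treatment lasted 24 h, and each group had 3 libraries of polyadenylated RNA. The labels do not say whether the 3 libraries came from separate cultures, so p-values measure the spread between these libraries, which may be technical.

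Copper is an essential cofactor and toxic when free, so cells keep it bound. The transporter CTR1, the product of *Slc31a1*, takes up reduced copper, and small chaperones pass it on by direct contact. ATOX1 delivers it to the ATPases ATP7A and ATP7B in the secretory pathway, CCS to superoxide dismutase, and COX17 to the mitochondrial assembly of cytochrome c oxidase. In liver, ATP7B loads copper onto ceruloplasmin and exports the excess into bile. When metal rises, MTF1 binds metal response elements and induces metallothioneins, which sequester the metal.

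Expression is given as FPKM, fragments scaled to the length of the gene and the size of the library, so levels can be compared between genes. FPKM is a share of the RNA sequenced, and in bulk RNA fewer cells and less RNA per cell cannot be told apart. Library totals, worked out from the steps between low FPKM values, ran from 29112342 to 39772346 reads. Differences were tested as log2(FPKM + 1) with limma across the 10615 genes that averaged 1 FPKM or more, which included 9 of the 10 members, and p-values were adjusted by the Benjamini-Hochberg (BH) method over all of them. SE is the standard error of a log2 fold change. *Atp7b* was below this level and was not tested. The second replicate of group C stood apart from the others of its group, at a mean Euclidean distance of 29.5 on the log2 scale against 24.2 and 23.1 for replicates 1 and 3. It was also the one of the 3 nearest to group B, and comparisons with group C are given with and without it where they changed. Of 8 hepatocyte markers, 6 were in the table. *Alb* and *Hnf4a* were listed at 0 in every library of group A, *Apoa1* averaged 0.00863 FPKM, and *Krt8* and *Krt18* averaged 344 and 285 FPKM there, so the keratins were present and the defining liver products were at or near 0. The summed FPKM of the hepatocyte markers ran from 598 to 651 without treatment (A), 243 to 295 with Cu/ES (B), 191 to 228 with Cu/ES and TCA (C), and 701 to 721 with TCA alone (D). Most of each sum came from *Krt8* and *Krt18*, so it does not describe every marker. *Apoe* went the other way, averaging 1.73 FPKM in group A, 7.96 in group B and 20.5 in group C. *Apoa1* averaged 1.86 FPKM in group B and 1.11 in group C. Of 7 markers of other liver cell types, 6 were in the table, and their summed FPKM ran from 235 to 323 without treatment (A), 74.0 to 95.0 with Cu/ES (B), 94.5 to 103 with Cu/ES and TCA (C), and 157 to 244 with TCA alone (D), most of it from *Krt19*. The endothelial marker *Pecam1* went from 0.214 ± 0.0633 FPKM in group A to 6.85 ± 2.35 in group B and 16.1 ± 2.10 in group C (mean ± SD, n = 3). *Adgre1* was listed at 0 in groups A, B and D. The part of these markers in the results below was not tested.

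In untreated cells the members spanned a wide range of levels. *Sod1*, the cytosolic copper-zinc superoxide dismutase, was highest at 338 ± 6.37 FPKM (mean ± SD, n = 3). The chaperones *Atox1* and *Cox17* followed at 82.0 ± 2.57 and 53.1 ± 2.21 FPKM, then *Slc31a1* at 28.1 ± 0.618 FPKM. *Ccs*, *Commd1* and *Slc31a2* lay between 18.4 and 10.1 FPKM on average, and *Atp7a* and *Mtf1* at 5.22 and 3.35 FPKM. *Atp7b* was last at 0.0665 ± 0.0298 FPKM. No neighbours in this order overlapped between libraries of group A. In groups B and C the order was the same for the first 4 genes, *Mtf1* stood above *Atp7a*, and *Atp7a* and *Ccs* overlapped. In group D *Mtf1* also stood above *Atp7a*.

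**Figure D1:**
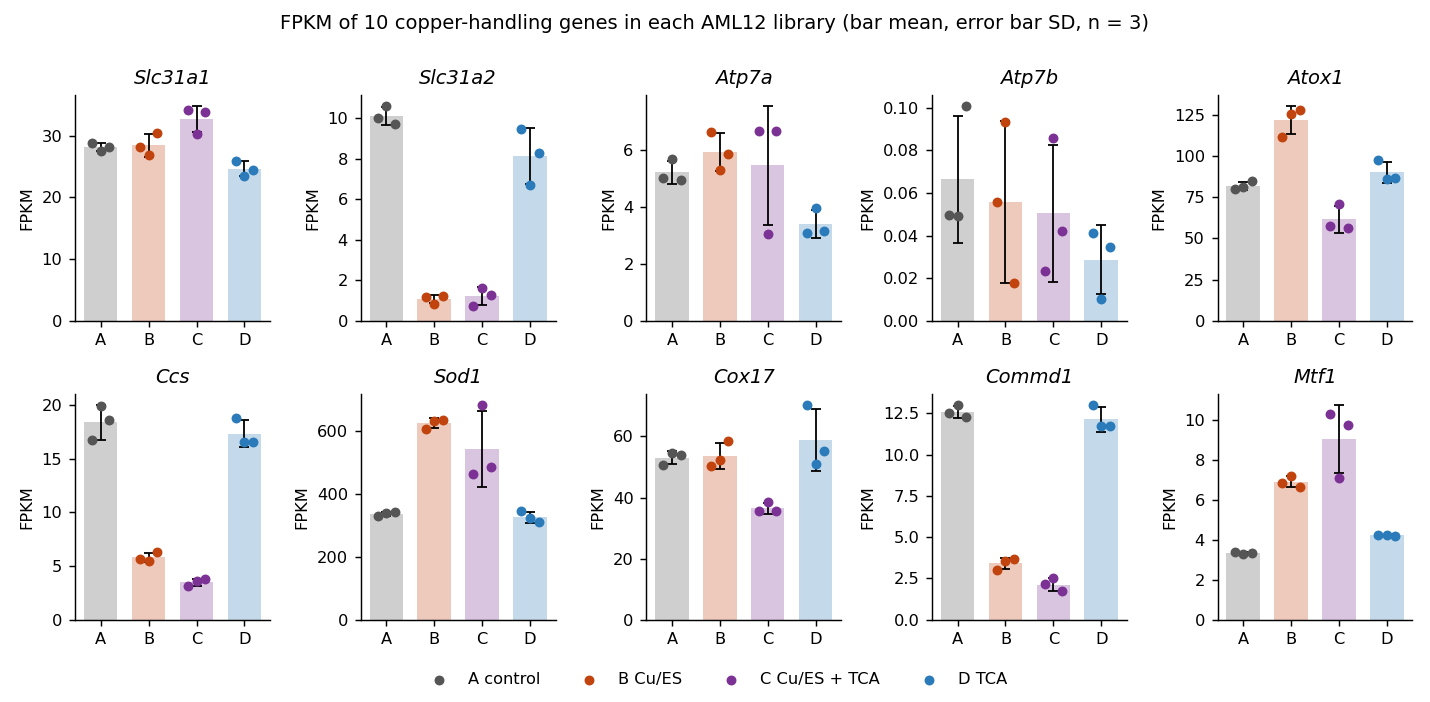
FPKM (y axis, linear, from 0, its own scale for each gene) of the 10 members in the 3 libraries of groups A to D (x axis). Points are libraries, bars are means and error bars are SD; *Slc31a2*, *Ccs* and *Commd1* are low in groups B and C, *Sod1* and *Mtf1* are high there, and *Atox1* is high in group B and low in group C.

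The comparison of group B with group A shows how the copper genes stood after 24 h of Cu/ES. *Slc31a2*, *Ccs* and *Commd1* fell, *Atox1*, *Sod1* and *Mtf1* rose, and for *Slc31a1*, *Atp7a* and *Cox17* no difference was detected. The study's thresholds were 0.05 for the adjusted p and 1 for the size of the log2 fold change, and past both of them 3 of the 9 tested members were lower and 0 were higher in limma. Of all genes tested, 53.0% were lower and 10.1% were higher past both. These are 5622 and 1070 genes, and median-ratio scaling turned the split into 2722 lower and 2757 higher. At the adjusted p alone 3 members were higher and 3 were lower, against 20.1% and 72.0% of all genes, or 92.1% in either direction. The count with an unadjusted p under 0.05 was also 6, and limma-voom on the recovered reads put 1 member, *Mtf1*, higher past both. The median gene stood at -1.10 on the log2 scale and the median of the 9 members at 0.01. Changes of the tested members are therefore also given relative to that median.

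*Slc31a1* encodes the high-affinity copper importer. Its FPKM was 28.8, 27.5 and 28.1 without treatment (A), 28.1, 26.8 and 30.5 with Cu/ES (B), 34.1, 30.3 and 33.8 with Cu/ES and TCA (C), and 25.9, 23.5 and 24.5 with TCA alone (D). The libraries of groups A and B overlapped, those of group D were lowest and those of group C included the highest. The log2 fold change between groups B and A was 0.01 (SE 0.07, BH-adjusted p = 0.862 in limma), which was 1.11 above the median gene.

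*Slc31a2* encodes CTR2, a relative of CTR1 found on endosomes and lysosomes. Its FPKM was 10.01, 10.6 and 9.70 in untreated libraries and 1.17, 0.838 and 1.21 in those with Cu/ES. In group C it was 0.733, 1.62 and 1.28 FPKM, and in group D 9.45, 6.70 and 8.26 FPKM. Both groups that received Cu/ES were far below both groups that did not, without overlap. The group B mean was 0.106 times that of group A, the largest fall of any member, with a log2 fold change of -2.42 (SE 0.15, BH-adjusted p = 6.51e-10 in limma), 1.32 further down than the median gene. Each group B library held 54 to 75 reads of it. No fall of *Slc31a1* was detected, and within a library the ratio of *Slc31a2* to *Slc31a1* went from 0.359 ± 0.0223 in untreated cells to 0.0376 ± 0.00560 with Cu/ES (mean ± SD, n = 3). The difference of the log2 ratios of FPKM + 1 was -2.44 (two-sided exact permutation p = 0.1, the smallest that 3 libraries against 3 allow).

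*Atp7a* encodes the copper ATPase of most tissues outside the liver. Its FPKM was 5.03, 5.69 and 4.95 without treatment (A), 6.62, 5.29 and 5.85 with Cu/ES (B), 6.66, 3.04 and 6.68 with Cu/ES and TCA (C), and 3.10, 3.98 and 3.16 with TCA alone (D). Groups A and B overlapped, and the second library of group C lay below every library of groups A, B and the rest of group C. The log2 fold change between groups B and A was 0.15 (SE 0.19, BH-adjusted p = 0.466 in limma), 1.25 above the median gene. The ratio of *Atp7a* to *Slc31a1*, exporter to importer, averaged 0.186 ± 0.0179 for the untreated libraries and 0.208 ± 0.0239 for those with Cu/ES (mean ± SD, n = 3). The libraries overlapped in this ratio (exact permutation test of log2 ratios, two-sided, p = 0.3).

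*Atp7b*, the liver's own copper ATPase and the gene of Wilson disease, was close to the limit of detection in every group. Its FPKM was 0.0497, 0.0490 and 0.101 without treatment (A), 0.0558, 0.0936 and 0.0177 with Cu/ES (B), 0.0234, 0.0858 and 0.0421 with Cu/ES and TCA (C), and 0.0411, 0.0104 and 0.0344 with TCA alone (D). These values rested on 14, 14 and 29 reads without treatment (A), 13, 22 and 4 with Cu/ES (B), 5, 22 and 10 with Cu/ES and TCA (C), and 12, 3 and 10 with TCA alone (D). Groups A, B and C overlapped, and no difference was detectable at this depth. The 3 libraries of group D lay below those of group A (two-sided exact permutation p = 0.1, the smallest possible), on 25 against 57 reads in all. The difference of mean log2(FPKM + 1) was -0.02 between groups B and A and -0.05 between D and A. An unfiltered limma-voom fit of the recovered reads, added once the data had been seen, gave -1.28 for D vs. A with a BH-adjusted p of 0.261. The mean ratio of *Atp7b* to *Atp7a* was 0.0130 without treatment and 0.00971 with Cu/ES.

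*Atox1* encodes the cytosolic chaperone that feeds both ATPases. Its FPKM was 79.9, 81.2 and 84.9 without treatment (A), 112, 126 and 128 with Cu/ES (B), 57.3, 71.2 and 56.4 with Cu/ES and TCA (C), and 97.6, 86.4 and 87.0 with TCA alone (D). No groups overlapped: group B was highest, then D, then A, and group C was lowest. The group B mean was 1.49 times the group A mean, a log2 fold change of 0.56 (SE 0.09, BH-adjusted p = 3.08e-05 in limma), 1.66 above the median gene. The ratio of *Atox1* to *Slc31a1* was 2.92 ± 0.124 without treatment (A), 4.29 ± 0.363 with Cu/ES (B), 1.90 ± 0.390 with Cu/ES and TCA (C), and 3.66 ± 0.111 with TCA alone (D), each as mean ± SD with n = 3. It did not overlap between groups B and A or between C and B (exact permutation tests of log2 ratios, two-sided, p = 0.1 in each).

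*Ccs* encodes the chaperone that inserts copper into superoxide dismutase 1. Its FPKM was 16.7, 19.9 and 18.6 without treatment (A), 5.68, 5.51 and 6.29 with Cu/ES (B), 3.16, 3.60 and 3.78 with Cu/ES and TCA (C), and 18.8, 16.6 and 16.6 with TCA alone (D). Groups B and C were each apart from all others, and groups A and D overlapped. The mean in group B was 0.317 times that in group A, a log2 fold change of -1.50 (SE 0.09, BH-adjusted p = 5.43e-10 in limma), 0.40 further down than the median gene.

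*Sod1* went the other way. Its FPKM was 330, 340 and 343 without treatment (A), 609, 633 and 637 with Cu/ES (B), 465, 684 and 485 with Cu/ES and TCA (C), and 346, 323 and 310 with TCA alone (D). Every library with Cu/ES was above every library without, and the second library of group C was the highest of all 12. The group B mean was 1.86 times the group A mean, a log2 fold change of 0.89 (SE 0.11, BH-adjusted p = 2.57e-06 in limma), 1.99 above the median gene. The chaperone and its enzyme thus separated: the ratio of *Ccs* to *Sod1* FPKM was 0.0544 ± 0.00403 without treatment (A), 0.00930 ± 0.000588 with Cu/ES (B), 0.00662 ± 0.00127 with Cu/ES and TCA (C), and 0.0530 ± 0.00159 with TCA alone (D), each as mean ± SD with n = 3. The difference of log2 ratios between groups B and A was -2.39 (two-sided exact permutation p = 0.1, the smallest possible), on the scale of FPKM + 1. Under quantile normalization, which alters genes unequally within a library, the fold changes were -0.41 for *Ccs* and 0.14 for *Sod1*.

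*Cox17* encodes the chaperone of the mitochondrial intermembrane space. Its FPKM was 50.6, 54.7 and 53.9 without treatment (A), 50.2, 52.3 and 58.4 with Cu/ES (B), 35.5, 38.6 and 35.5 with Cu/ES and TCA (C), and 70.3, 50.9 and 55.1 with TCA alone (D). Groups A, B and D overlapped and group C was below all of them. The log2 fold change between groups B and A was 0.01 (SE 0.10, BH-adjusted p = 0.9 in limma), 1.11 above the median gene.

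*Commd1* encodes a subunit of a complex that sorts ATP7A and ATP7B on endosomes. Its FPKM was 12.5, 13.0 and 12.3 without treatment (A), 3.02, 3.57 and 3.65 with Cu/ES (B), 2.15, 2.50 and 1.72 with Cu/ES and TCA (C), and 13.0, 11.7 and 11.7 with TCA alone (D). It was lower in every library with Cu/ES than in every library without, and lowest in group C. Between groups B and A the log2 fold change was -1.62 (SE 0.10, BH-adjusted p = 6.87e-10 in limma), 0.52 further down than the median gene. In the GENCODE M21 annotation its exons overlap those of *Gm28048* on the same strand and of *Zrsr1* on the opposite strand, and those of *Cox17* overlap *Gm21987* on the same strand. Whether counting used the strand is not given in the sources used here, so the values of these members are uncertain by the reads such genes share.

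*Mtf1* encodes the factor that switches on metallothionein genes. Its FPKM was 3.41, 3.30 and 3.34 without treatment (A), 6.86, 7.21 and 6.66 with Cu/ES (B), 10.3, 7.12 and 9.77 with Cu/ES and TCA (C), and 4.23, 4.27 and 4.18 with TCA alone (D). Libraries of group A were lowest and those of group D came next, without overlap. The group B mean was 2.06 times the group A mean. On the log2(FPKM + 1) scale, which understates changes of low genes, the fold change was 0.86 (SE 0.10, BH-adjusted p = 2.00e-06 in limma), 1.96 above the median gene. Its exons overlap those of *1110065P20Rik* on the opposite strand, which went from 21.7 FPKM in group A to 3.54 in group B.

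**Figure D2:**
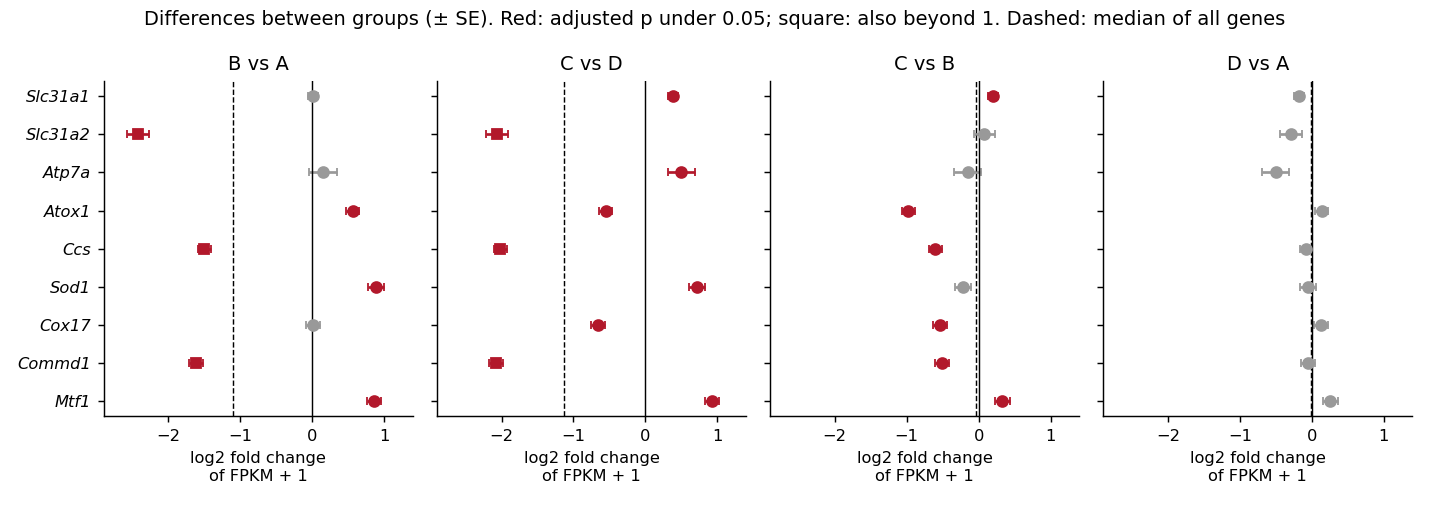
Log2 fold change of FPKM + 1 (x axis, ± standard error from limma) of the 9 tested members (y axis) in 4 comparisons. Red marks an adjusted p under 0.05, squares an absolute change above 1 as well, and the dashed line the median of all genes tested, which is -1.10 for group B vs. A and -1.13 for C vs. D.

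How the libraries were scaled decided the direction for some members and not for others. *Slc31a2*, *Ccs* and *Commd1* were lower and *Atox1*, *Sod1* and *Mtf1* were higher in group B than in group A under every scaling tried, each past the adjusted p in limma. *Slc31a1* and *Cox17* were lower under TPM scaling, with a log2 fold change of -0.35 for each (BH-adjusted p = 0.00132 and 0.00164 in limma). Under median-ratio scaling, which brings the median of all genes to -0.03, they were higher, at 1.25 and 1.28 (BH-adjusted p = 4.84e-10 and 1.01e-07 in limma). *Atp7a* was at -0.18 under TPM and at 1.23 under median-ratio scaling (BH-adjusted p = 0.473 and 2.70e-05 in limma). Median-ratio scaling thus gave 6 members higher and 1 lower past both thresholds, *Slc31a2* being the one lower. Quantile normalization gave 2 higher and 1 lower. Of all 10615 genes, median-ratio scaling gave 2757 higher and 2722 lower past both, and quantile normalization 2198 and 2353. Under median-ratio scaling and quantile normalization in turn, *Ccs* was at -0.34 and -0.41 and *Commd1* at -0.52 and -0.34. *Sod1* was at 2.17 and 0.14 (BH-adjusted p = 2.11e-09 and 0.0293 in limma), and *Atox1* at 1.84 and 0.45.

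**Figure D3:**
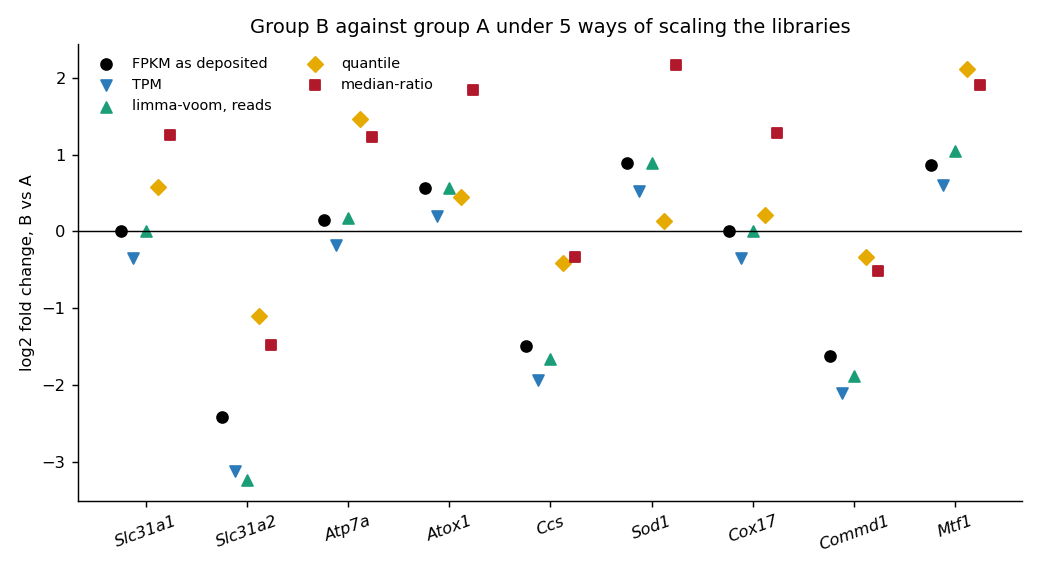
Log2 fold change between groups B and A (y axis) of the 9 tested members (x axis) with the libraries scaled in 5 ways: FPKM as deposited, TPM, limma-voom on recovered reads, quantile normalization and median-ratio scaling. Points of *Slc31a2*, *Ccs* and *Commd1* all lie below 0 and those of *Atox1*, *Sod1* and *Mtf1* all lie above, while those of *Slc31a1*, *Atp7a* and *Cox17* fall on both sides.

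Group C was compared with group B to ask what TCA changed in cells that already received Cu/ES. *Atox1*, *Ccs*, *Cox17* and *Commd1* fell and *Mtf1* and *Slc31a1* rose at the adjusted p, 6 of 9 tested members, against 44.0% of all genes (23.6% lower and 20.4% higher). No member passed both thresholds in limma or in limma-voom, and 6 had an unadjusted p under 0.05. Of all genes, 1.16% fell and 1.13% rose past both. This comparison uses the same group B libraries as the comparison with group A, so a high value in group B moves both.

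*Atox1* went down from 122 ± 8.75 FPKM in group B to 61.6 ± 8.25 in group C (mean ± SD, n = 3), or by -0.98 on the log2 scale (SE 0.09, BH-adjusted p = 3.16e-06 in limma). Only 1.25% of the tested genes had a lower fold change. Without the second replicate of group C the fold change was -1.08, past both thresholds, and likewise -1.04 without the first of group B. *Ccs* fell to 0.603 times its group B mean (log2 fold change -0.60, BH-adjusted p = 1.24e-04 in limma). *Cox17* fell to 0.681 times (-0.54, BH-adjusted p = 7.19e-04 in limma) and *Commd1* to 0.621 times (-0.51, BH-adjusted p = 9.14e-04 in limma). In each of these 4 genes no library of group C overlapped with group B. How common this was over all genes was not counted, so it does not set these genes apart.

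The *Mtf1* mean in group C was 1.31 times that in group B, a log2 fold change of 0.33 (BH-adjusted p = 0.0202 in limma). The *Slc31a1* mean was 1.15 times that in group B, a log2 fold change of 0.20 (BH-adjusted p = 0.0361 in limma). The libraries overlapped in both genes, and both lost their call in fits that left out a library. For *Mtf1* these were fits without replicate 1 or 3 of group C or of group B, with BH-adjusted p up to 0.0938 in limma. For *Slc31a1* they were fits without replicate 1 or 3 of group C, or 1 or 2 of group B, with BH-adjusted p up to 0.128 in limma. Both calls were also lost when the libraries of groups B and C alone were fitted (BH-adjusted p = 0.0795 for *Mtf1* and 0.09 for *Slc31a1* in limma). That fit put 1762 of the 10615 genes higher and 2092 lower at the adjusted p. *Sod1* was at -0.22 (BH-adjusted p = 0.12 in limma) and, without the second replicate of group C, at -0.40 (BH-adjusted p = 9.40e-05 in limma). *Atp7a* was at -0.15 and, without that library, at 0.15 (BH-adjusted p = 0.557 and 0.266 in limma). *Slc31a2* was at 0.08 (BH-adjusted p = 0.709 in limma).

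Group D was compared with group A for the effect of TCA without Cu/ES. None of the 9 tested members passed the adjusted p in limma, against 22.0% of all genes (10.5% higher and 11.5% lower), and none did in limma-voom, while 3 had an unadjusted p under 0.05 in limma and 4 in limma-voom. Past both thresholds 0.0659% of all genes were higher and 0.151% lower. The 3 members were *Slc31a1*, *Atp7a* and *Mtf1*. *Atp7a* was 0.653 times as high in group D, with a log2 fold change of -0.50 (SE 0.19, BH-adjusted p = 0.0817 in limma). *Mtf1* was 1.26 times as high, with 0.26 (BH-adjusted p = 0.0873 in limma), and *Slc31a1* was 0.876 times as high, with -0.18 (BH-adjusted p = 0.0765 in limma). In all of these the libraries of the groups did not overlap (exact permutation tests, two-sided, p = 0.1, the smallest possible). The same held for *Slc31a2* and *Atox1* among the tested members. How many of all genes had no overlap was not counted, so the lack of overlap does not set these members apart. When the libraries of groups A and D alone were fitted, *Slc31a1*, *Atp7a* and *Mtf1* passed (BH-adjusted p = 0.0374, 0.0155 and 0.0167 in limma). That fit put 1319 of the 10615 genes higher and 1441 lower at the adjusted p. *Slc31a1* and *Mtf1* also passed under quantile normalization, where 1432 genes were higher and 1189 lower. The remaining 6 had log2 fold changes from -0.29 for *Slc31a2* to 0.14 for *Atox1*.

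The effect of TCA with Cu/ES was set against its effect without, by the interaction term of the model. It passed the adjusted p for 5 of 9 tested members, against 37.5% of all genes, with 1 member above 0 and 4 below (17.7% and 19.8% of all genes). Past both thresholds was *Atox1* alone (no member under quantile normalization), where 1.75% of all genes were above 0 and 1.73% below. *Atox1* differed most: its log2 fold change upon TCA was 0.14 without Cu/ES and -0.98 with it, a difference of -1.11 (SE 0.13, BH-adjusted p = 4.96e-05 in limma). *Cox17* differed by -0.67, *Ccs* by -0.52 and *Commd1* by -0.46 (BH-adjusted p = 0.00269, 0.00591 and 0.0193 in limma), and without replicate 1 of group D the call of *Commd1* was lost (-0.41, BH-adjusted p = 0.0553 in limma). That of *Ccs* was lost in the unfiltered limma-voom fit (-0.64, BH-adjusted p = 0.0818). *Slc31a1* differed in the opposite direction, by 0.38 (BH-adjusted p = 0.00893 in limma), with -0.18 without Cu/ES and 0.20 with it. For *Mtf1* the difference was 0.07 (SE 0.15, BH-adjusted p = 0.752 in limma). *Atp7a* and *Sod1* passed only without the second replicate of group C, at 0.65 and -0.35 (BH-adjusted p = 0.00297 and 0.00271 in limma). *Slc31a2* passed only without the first, at 0.53 (BH-adjusted p = 0.0334 in limma).

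**Figure D4:**
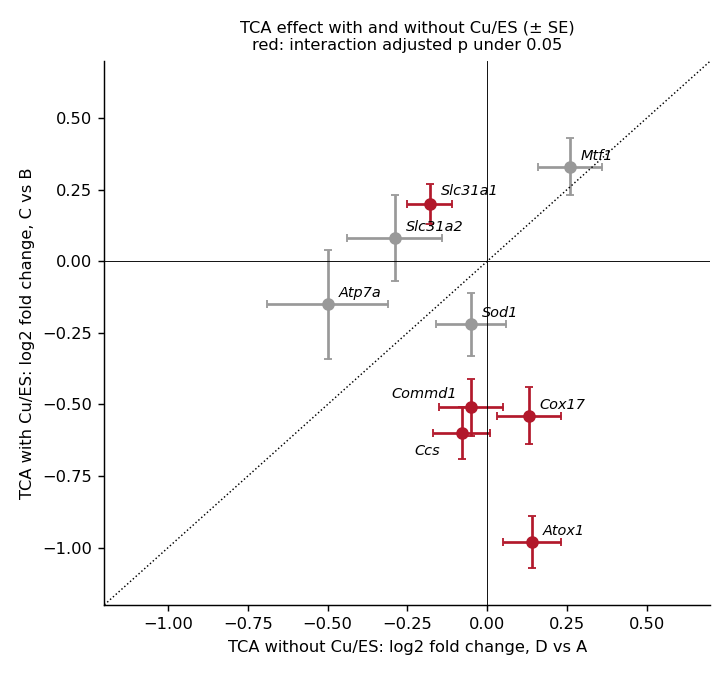
Log2 fold change upon TCA without Cu/ES (x axis, group D vs. A) and with Cu/ES (y axis, group C vs. B) of the 9 tested members, ± standard error. On the dotted line both effects are equal; red marks members with an interaction adjusted p under 0.05, of which *Atox1*, *Ccs*, *Cox17* and *Commd1* lie below the line and *Slc31a1* lies above it.

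Group C vs. D shows the effect of Cu/ES in the presence of TCA, in libraries that the comparison of B with A does not use. All 9 tested members passed the adjusted p, 4 higher and 5 lower, as did 92.4% of all genes (20.9% higher and 71.5% lower). *Commd1*, *Slc31a2* and *Ccs* were again lower past both thresholds, with log2 fold changes of -2.08, -2.06 and -2.02 (BH-adjusted p = 4.14e-11, 4.07e-09 and 1.98e-11 in limma), where 53.3% of all genes were lower and 11.2% higher. *Mtf1* was higher by 0.93 and *Sod1* by 0.72 (BH-adjusted p = 8.65e-07 and 2.44e-05 in limma). *Slc31a1* was higher by 0.39 and *Atp7a* by 0.50 (BH-adjusted p = 9.53e-05 and 0.0261 in limma), and the libraries of *Atp7a* overlapped. Both calls were lost under TPM scaling (BH-adjusted p = 0.202 and 0.251 in limma), that of *Atp7a* also without replicate 1 or 3 of group C or of group D (BH-adjusted p up to 0.127 in limma). Without replicate 2 of group C *Atp7a* was at 0.80. *Sod1* lost its call under quantile normalization, at 0.12 (BH-adjusted p = 0.0628 in limma). *Atox1*, higher in group B than in A, was lower in group C than in D, by -0.55, and *Cox17* by -0.66 (BH-adjusted p = 3.86e-05 and 2.19e-05 in limma). The median gene was at -1.13 here, and under median-ratio scaling these last 2 were higher instead, by 0.69 and 0.57. That scaling gave 4 members higher and 2 lower past both thresholds, against 0 and 3 without it. Of all genes it gave 2753 higher and 2893 lower.

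The 5′ ends of the members were searched for the letters that MTF1 recognises, since *Mtf1* is itself a member and rose. RefSeq promoters of GRCm38.p6, 250 bases before to 50 bases after a gene's start, were at hand for 8 of the 10 members. The submitters' processing notes name GRCm39, and no position was read from the expression files. The core of the metal response element was read as TGCACNC or TGCGCNC on either strand. Matches of the 2 forms, or on the 2 strands, may share bases, and 25.7% of all 32851 promoters hold at least 1. It was found at *Atp7a* in 2 places, and once each at *Slc31a2*, *Atp7b* and both *Commd1* promoters. In the windows of *Slc31a1*, *Atox1*, *Sod1* and *Mtf1* these letters were not found. *Mt1*, a metallothionein gene long known as an MTF1 target, is shown for comparison with its 3 matches. The matches are in capitals, and the members shown are the exporter with no detected difference between groups B and A and the transporter that fell most.
Mt1, chr8:94178839-94179138, plus strand: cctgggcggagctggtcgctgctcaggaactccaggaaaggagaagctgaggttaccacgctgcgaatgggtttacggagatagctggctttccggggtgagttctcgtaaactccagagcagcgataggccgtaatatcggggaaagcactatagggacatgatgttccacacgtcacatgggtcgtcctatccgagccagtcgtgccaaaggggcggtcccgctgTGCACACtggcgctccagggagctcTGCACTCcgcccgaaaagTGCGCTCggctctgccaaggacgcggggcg
Atp7a, chrX:106026974-106027273, plus strand: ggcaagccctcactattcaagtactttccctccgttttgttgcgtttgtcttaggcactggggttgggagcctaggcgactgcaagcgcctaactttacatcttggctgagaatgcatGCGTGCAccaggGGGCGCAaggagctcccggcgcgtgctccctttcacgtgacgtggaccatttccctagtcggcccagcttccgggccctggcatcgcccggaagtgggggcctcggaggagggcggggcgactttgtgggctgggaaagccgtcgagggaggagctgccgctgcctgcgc
Slc31a2, chr4:62286179-62286478, plus strand: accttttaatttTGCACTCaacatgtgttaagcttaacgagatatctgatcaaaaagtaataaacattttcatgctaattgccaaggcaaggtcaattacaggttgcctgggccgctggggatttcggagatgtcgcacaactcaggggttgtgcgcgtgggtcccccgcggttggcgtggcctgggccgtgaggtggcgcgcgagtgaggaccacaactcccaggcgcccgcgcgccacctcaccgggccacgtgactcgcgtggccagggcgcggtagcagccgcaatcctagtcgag
In *Mt1* the matches are on the gene's own strand, with their first bases at -23, 3 and 21 relative to the start. Those of *Atp7a* are on the opposite strand, at -132 and -120, and that of *Slc31a2* is on the gene's own strand at -238. The same windows were searched for pairs of heat shock units, GAANNTTC or TTCNNGAA, held by 15.1% of all promoters, and among the members *Sod1* held 1. The core of the antioxidant response element, TGACNNNGC, is held by 12.4% of all promoters, and was found at *Slc31a2*, *Atox1*, *Sod1* and one of the *Commd1* promoters. A match is a description of the letters only.

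The rest of the copper pathway was followed in lists. For the counts below, 20.4% of all genes were higher and 23.6% lower at the adjusted p in C vs. B. In D vs. A these shares were 10.5% and 11.5%. Median-ratio scaling put 2757 of all 10615 genes higher and 2722 lower past both thresholds in B vs. A. Mitochondrial copper delivery downstream of *Cox17*, the assembly factors that metallate cytochrome c oxidase, was lower in group B for most genes. Of 12 listed genes 10 were tested, and 8 fell and 0 rose past both thresholds (53.0% and 10.1% of all genes), and the list median was -1.60 on the log2 scale, where that of all genes was -1.10. *Cox11*, a copper-binding assembly factor, fell from 7.44 ± 0.466 to 0.660 ± 0.227 FPKM (log2 fold change -2.35, BH-adjusted p = 4.42e-11 in limma). *Cox19* fell from 16.4 ± 1.72 to 3.22 ± 0.777 FPKM (-2.06, BH-adjusted p = 2.88e-09 in limma). *Slc25a3*, named after its values were seen and the highest of the list, rose from 277 ± 7.29 to 516 ± 24.1 FPKM. Its log2 fold change was 0.90 (BH-adjusted p = 5.39e-09 in limma). Under median-ratio scaling the list median was -0.54 and 2 fell past both. Between groups C and B 1 rose and 1 fell at the adjusted p, and between D and A none did.

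The partners of *Commd1*, namely the other COMMD proteins and the CCC and retriever complexes that recycle membrane proteins, followed. All 14 were tested, 7 fell and 1 rose past both thresholds in group B, near the shares of all genes (53.0% and 10.1%), and the list median was -1.11, beside -1.10 for all genes. *Commd5* fell from 11.6 ± 0.890 to 0.121 ± 0.0717 FPKM, a log2 fold change of -3.49, and *Commd7* from 10.8 ± 0.353 to 0.669 ± 0.130 FPKM, a log2 fold change of -2.83. *Commd9* rose from 12.6 ± 2.32 to 32.2 ± 0.791 FPKM, a log2 fold change of 1.30 (BH-adjusted p = 1.66e-07 in limma). Under median-ratio scaling 3 rose and 3 fell past both. In group C vs. B 5 rose and 2 fell at the adjusted p, and in D vs. A 1 fell.

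The list of copper buffering, reduction and metal response had 15 of 17 genes tested, of which 4 rose and 5 fell past both thresholds in group B (10.1% and 53.0% of all genes), with a median of 0.33 where that of all genes was -1.10. The largest rises were in the subunits of glutamate-cysteine ligase, the first enzyme of glutathione synthesis. *Gclm* rose from 15.4 ± 0.944 to 362 ± 20.7 FPKM (log2 fold change 4.46, BH-adjusted p = 6.92e-15 in limma) and *Gclc* from 10.9 ± 0.512 to 32.0 ± 0.926 FPKM (1.47, BH-adjusted p = 2.41e-10 in limma). The metalloreductase gene *Steap2* fell from 7.59 ± 0.552 to 0.266 ± 0.0168 FPKM (-2.76) and *Cutc*, which encodes a copper-binding protein, from 5.09 ± 0.559 to 0.378 ± 0.178 FPKM (-2.15). Of genes known as MTF1 targets, named after their values were seen, *Mt1* rose from 169 ± 8.71 to 354 ± 45.1 FPKM and *Slc30a1*, a zinc exporter, from 1.31 ± 0.127 to 3.69 ± 0.216 FPKM, and *Mt2* fell from 554 ± 35.7 to 281 ± 42.9 FPKM (mean ± SD, n = 3 throughout). Their log2 fold changes were 1.05, 1.02 and -0.99 (BH-adjusted p = 4.09e-07, 3.77e-07 and 7.40e-07 in limma). Relative to the median gene they were 2.16, 2.12 and 0.11, so *Mt2* did not lie below the median gene. Between groups C and B, where *Mtf1* rose, *Mt1* fell by 1.13 and *Mt2* by 0.79 on the log2 scale (BH-adjusted p = 5.31e-06 and 7.75e-05 in limma). *Slc30a1* was at 0.26 there (BH-adjusted p = 0.0676 in limma). That rise of *Mtf1* lost its call in some fits that left out a library. In group C vs. B 4 genes of the list rose and 2 fell at the adjusted p, and in D vs. A 3 rose and 2 fell. Under median-ratio scaling 9 rose and 3 fell past both in group B.

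Of 17 listed enzymes that receive copper in the secretory pathway 6 were tested, and 5 fell and 1 rose past both thresholds in group B (53.0% and 10.1% of all genes). The list median was -2.12, where that of all genes was -1.10. *Loxl2*, a lysyl oxidase that cross-links matrix, fell from 68.9 ± 1.43 to 4.03 ± 0.939 FPKM (log2 fold change -3.81, BH-adjusted p = 1.36e-12 in limma). *Cp*, which encodes ceruloplasmin, fell from 20.6 ± 10.4 to 3.37 ± 1.45 FPKM (-2.25, BH-adjusted p = 2.69e-05 in limma). *Aoc2*, a copper amine oxidase, rose from 2.40 ± 0.0975 to 6.30 ± 0.152 FPKM (1.10, BH-adjusted p = 1.15e-07 in limma). In group C vs. B 3 fell and 1 rose at the adjusted p, and in D vs. A 1 rose. Under median-ratio scaling 3 of the 6 fell and 1 rose past both in group B.

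**Figure D5:**
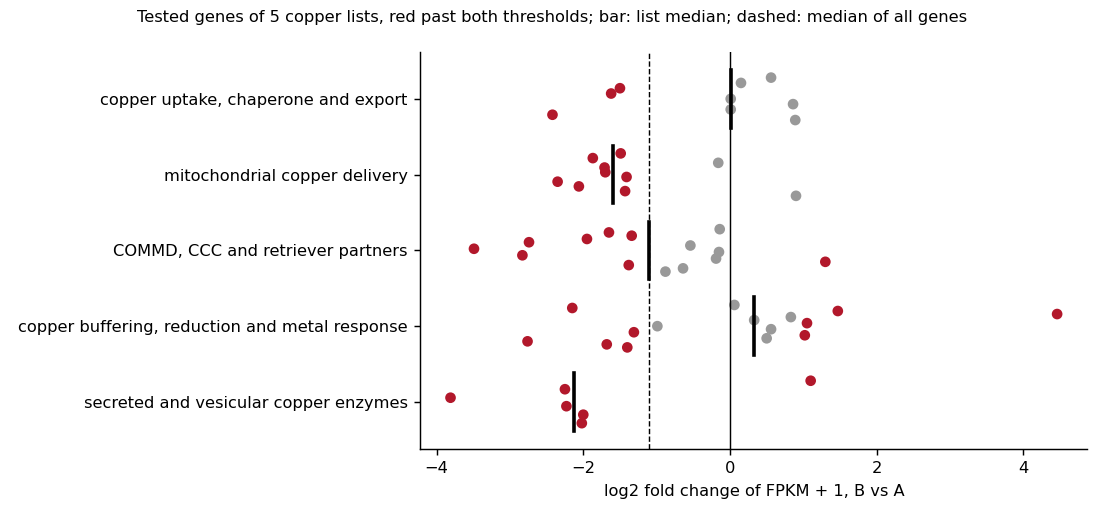
Log2 fold change between groups B and A (x axis) of the tested genes in the members' list and 4 further copper lists (y axis). Points are genes, red past both thresholds, black bars are list medians (0.01 for the members, -1.60, -1.11, 0.33 and -2.12 for the lists below) and the dashed line is the median of all genes tested at -1.10.

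Genes whose profile over the 12 libraries was most like a member's were found by the smallest root mean square difference of centred log2(FPKM + 1). *Sod1* was like *Rps27a*, which encodes a fusion of ubiquitin and a ribosomal protein, with a difference of 0.06. *Ccs* was most like *Hadha*, a gene of mitochondrial fatty acid oxidation, with 0.06, then *Fam110a* with 0.10. *Commd1* was most like *Ergic3* and *Tmco1*, with 0.08 and 0.09. *Atox1* was most like *Tmem109* (0.09) and *Cox7a2* (0.13), both of which were higher in group B than in A on average and lowest in group C. *Cox17* was most like *Vmp1* (0.09) and *Gm10420* (0.10), and *Slc31a1* was most like *Spop* and *Eps8* (0.07 each). *Mtf1* was most like *Star* (0.07) and *Tob2* (0.08). *Slc31a2* was most like *1110065P20Rik* and *Scand1*, with differences of 0.13 and 0.14. *Atp7a* had the least close neighbours, *Prrc2c* and *Zfp292*, at 0.15 and 0.17.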

How the data were processed

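Polyadenylated RNA of AML12 cells was sequenced, 12 libraries in 4 groups taken from the sample labels. The submitters' processing notes name fastp, HISAT2, HTSeq and GRCm39; versions, annotation and strandedness are not given in the sources used here. The authors deposited FPKM values, one column per library, and all columns were used. Members and lists were chosen with earlier results of these data known. Log2(FPKM + 1) was fitted with limma 3.58.1 in R 4.3.3, in one model of the 4 groups with a mean-variance trend and 8 residual degrees of freedom, over genes averaging 1 FPKM or more. Alternatives were a pseudocount of 0.1, no filter, a minimum of 5 FPKM, TPM, median-ratio and quantile scaling, no trend, only the groups compared, limma-voom on recovered reads and each library left out. P-values were two-sided and Benjamini-Hochberg adjusted over all genes of each fit, 10615 in the main fit. There were 24824 genes with no filter, 6878 at a minimum of 5 FPKM and 19600 in the unfiltered limma-voom fit. Single values and ratios were compared by exact permutation tests. Whole reads were recovered from the spacing of FPKM for all 22212 genes (100.000%) that exceeded 0 in 2 or more libraries, within 0.02 reads, or 0.05 for the highest genes. Read numbers show counting error only. On these reads limma-voom called 1211 genes higher and 6078 lower past both thresholds in B vs. A, against 1070 and 5622 on FPKM.

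Members were described in every library. From each further list, up to 2 largest rises and 2 largest falls past both thresholds in group B vs. A were named, and the 2 nearest profiles of each tested member, of which 1 is not reported here. Any gene outside this rule is marked as picked with its values known. Deviations from group means correlated between same-numbered libraries of groups A and B at 0.142 to 0.174, and between differently numbered ones at -0.131 to 0.00440. Same-numbered libraries ran from -0.0309 to 0.183 between groups A and C, and from -0.0605 to 0.161 between B and D. These values are weak, so whether the labels' replicate numbers pair the groups is not known. A fit with the replicate number as a block was made as an alternative. On simulated data of 10197 genes for B vs. A, limma recovered 94.3% of 193 changed genes with 0 false calls. All planted changes were larger than the fold change threshold, and a false call had to pass both thresholds. Every simulated gene was given the same small spread, so false calls were unlikely by design. The simulation does not show how often calls are false in the deposited values. In the deposited values 1070 genes were higher and 5622 lower past both thresholds in B vs. A. Recovery with that many genes changed was not tested. Tables and plots used Python 3.11.15, pandas 2.3.3, scipy 1.17.1 and matplotlib 3.10.9.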

Additional observations from a re-analysis of the deposited data

Results flagged for a closer look

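The effect of TCA on 5 of 9 tested members differed with and without Cu/ES by the interaction term of the model (limma, Benjamini-Hochberg adjusted p under 0.05). Of all genes, 37.5% passed. The call of *Commd1* was lost without replicate 1 of group D, and that of *Ccs* in the unfiltered limma-voom fit. The difference, TCA with Cu/ES minus TCA without, was -1.11 on the log2 scale for *Atox1*, -0.67 for *Cox17*, -0.52 for *Ccs*, -0.46 for *Commd1* and 0.38 for *Slc31a1*. In *Atox1* the TCA libraries were above their controls without Cu/ES in 3 of 3 and below them with Cu/ES in 3 of 3.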

How the results depend on the processing

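Over the alternatives, 762 single-gene values kept direction and side of the threshold, 16 gained a call, 23 lost it, 15 changed sign and 4, of the untested *Atp7b*, moved by more than the spread. The cause was not tested. Past both thresholds, the members higher in B vs. A (0) became 1 with 0.1 as pseudocount and in limma-voom, filtered or not, 6 under median-ratio scaling and 2 under quantile normalization. The members lower in B vs. A (3) became 1 under median-ratio and 1 under quantile normalization. In C vs. D the members higher (0) became 1 with 0.1 as pseudocount and in limma-voom, filtered or not, 4 under median-ratio scaling and 3 under quantile normalization, and those lower (3) became 0 under quantile normalization. Over all 10615 genes, quantile normalization gave 2198 higher and 2353 lower in B vs. A, and 2269 and 2448 in C vs. D. Leaving out each library gave 0 to 1 members lower in C vs. B, with *Atox1* past both without the first of group B or the second of group C, and 0 to 1 higher in C vs. D, with *Mtf1* at 1.07 without the second of group C. Members past the interaction's adjusted p numbered 4 to 7.

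Sign changes were these. Under TPM, B vs. A was -0.35 for *Slc31a1*, -0.35 for *Cox17* and -0.18 for *Atp7a*. Under median-ratio scaling, C vs. D was 0.69 for *Atox1* and 0.57 for *Cox17*. Under quantile normalization the *Mtf1* interaction was -0.05. Among fits leaving out a library, B vs. A ran from -0.04 to 0.05 for *Slc31a1*, with -0.0021 without the second of group A, and from -0.05 to 0.06 for *Cox17*, with -0.02 without the first of group A. C vs. B ran from -0.06 to 0.24 for *Slc31a2*, with -0.01 without the second of group B, and from -0.31 to 0.15 for *Atp7a*. *Cox17* in D vs. A ran from -0.0016 to 0.23, the *Mtf1* interaction from -0.02 to 0.21, and the log2 ratio of *Atp7b* to *Slc31a1* in B vs. A from -0.09 to 0.05.

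With the replicate number as a block, 1 of 45 calls changed: *Slc31a1* in D vs. A, at -0.18, passed (limma with Benjamini-Hochberg, adjusted p = 0.0455). The block left 0 members higher and 3 lower past both in B vs. A. Same-numbered libraries correlated at 0.0872 to 0.579 between groups A and D, 0.00502 to 0.277 between B and C, and -0.171 to 0.110 between C and D. Low read numbers limit *Atp7b*, and *Slc31a2* in groups B and C. Over all genes past both, limma-voom gave 342 higher and 438 lower in C vs. B, where log2(FPKM + 1) gave 120 and 123, and 36 and 68 in D vs. A, where it gave 7 and 16. In C vs. D, median-ratio scaling gave 2753 and 2893 against 1189 and 5662.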
